A study of Mus musculus with 6 samples.

Results

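The brake and the accelerator of the G1 phase were examined in osteoclast precursors (OCPs) through 10 genes chosen by symbol: the CDK inhibitors *Cdkn1a*, *Cdkn1b*, *Cdkn1c*, *Cdkn2c* and *Cdkn2d*, the D cyclins *Ccnd1*, *Ccnd2* and *Ccnd3*, and their kinases *Cdk4* and *Cdk6*. These genes were chosen with earlier results of these data known. The gene table held 57180 rows, 13428 of them had enough counts to be tested, and all 10 genes were among those. Bone marrow-derived macrophages (BMDMs) from wild-type C57BL/6 mice (WT) and from lincRNA-EPS knockout mice (KO) received 40 ng/ml M-CSF for 24 h and then 40 ng/ml RANKL for 48 h, so both genotypes had the same RANKL-priming. Each genotype gave 3 independent replicates, sequenced as stranded mRNA libraries. The comparison of KO with WT OCPs asks what the loss of lincRNA-EPS, a long intergenic noncoding RNA, goes along with in primed cells. P-values measure the spread between these 3 and 3 libraries.

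As background, a cell enters the division cycle from G1 when D cyclins, made in response to growth factors such as M-CSF, bind CDK4 or CDK6 and phosphorylate the RB family of proteins, which releases E2F factors. INK4 inhibitors such as p18 (*Cdkn2c*) and p19 (*Cdkn2d*) bind CDK4 and CDK6 directly, while CIP/KIP inhibitors such as p21 (*Cdkn1a*), p27 (*Cdkn1b*) and p57 (*Cdkn1c*) bind complexes of cyclin and CDK and act on CDK2 most strongly. Osteoclast precursors divide under M-CSF and leave the cycle before they fuse, and p21 and p27 are known for a part in that exit.

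The libraries held 17757351 to 19998611 estimated counts. The targeted gene, listed as *Ttc39aos1*, had 20, 37 and 41 counts in the WT libraries and 0 in every KO library. Macrophage markers summed to between 14777 and 17572 normalized counts (CPM, counts scaled to the size of each library after TMM scaling) across the 6 libraries, led by *Lyz2* and *Cd68*, and 4 of 7 were lower in KO at an unadjusted p under 0.05 while 0 were higher, against 13.2% and 13% of all genes tested (median log2 fold change -0.27, with and without GC correction). Osteoclast precursor markers, led by *Mmp9* and *Ctsk*, summed to 5249 to 5675 CPM in WT and 6999 to 7415 CPM in KO, and 5 of 10 were higher in KO at an unadjusted p under 0.05, or 7 of 10 with GC correction, where 13% of all genes tested were higher without correction. Neutrophil markers, led by *S100a9* and *Ngp*, summed to 1352 to 1527 CPM in WT and 1773 to 2143 CPM in KO, and of 9 tested 5 were higher and 1, *Mpo*, lower at an unadjusted p under 0.05, or 6 and 1, *Mmp8*, with GC correction, where 26.2% and 26% of all genes tested reached that level in either direction. Endothelial markers, led by *Vwf*, summed to 100.5 to 125.4 CPM in WT and 53.7 to 89.4 CPM in KO. Mast cell and megakaryocyte markers lay between 88.9 and 125.7 CPM and progenitor markers between 37.1 and 41.8 CPM in the 6 libraries. At an unadjusted p under 0.05, 2 of 6 tested mast cell and megakaryocyte markers were higher and 0 lower, with and without GC correction. Without correction, 1 of 4 tested endothelial markers was lower and 0 higher, and 1 of 5 progenitor markers was higher and 0 lower. Of all genes tested, 13% were higher and 13.2% lower. Stromal markers stayed at or under 36.6 CPM, lymphocyte markers at or under 10.8 CPM and erythroid markers at or under 1.73 CPM, and the defining genes *Slc4a1* and *Mcpt4* were at 0 in every library. The part of these cell types in the values that follow was not tested, and in bulk samples fewer cells of a type and less RNA per cell cannot be told apart.

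A second property moved with genotype. Over 13176 tested genes with a known transcript, the log2 fold change of KO against WT fell with the GC content of the transcript (Pearson's r = -0.51 across genes, which are not independent replicates). Within libraries, the deviation from the mean of all 6 followed GC content most strongly in WT 2 (r = 0.56) and, in the opposite sense, in KO 3 (r = -0.61). Each of the 10 genes is therefore given with and without a correction of every library for GC content. Libraries also stood apart within each genotype: by the chi-square of their counts per degree of freedom, KO 1 lay nearer to WT 1 (8.61) and WT 3 (8.30) than to KO 2 (35.8) and KO 3 (51.9), while WT 2 lay farther from WT 1 (19.1) and WT 3 (17.8) than these did from each other (3.58).

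At the limits used here (adjusted p under 0.01 and a change over 1.3-fold), 0 of the 10 genes passed in edgeR's quasi-likelihood test, as against 0.00745% of all genes tested. At an unadjusted p under 0.05, 5 of the 10 genes passed, 4 of them lower in KO and 1 higher, against 26.2% of all genes tested, of which 13.2% were lower and 13% higher. The 3 KO libraries lay entirely below or above the 3 WT libraries for 6 of the 10 genes, a pattern that 35.7% of all genes tested showed. With DESeq2, 1 of the 10 genes passed the limits, against 1.22% of the genes it gave an adjusted p, and that gene was *Cdkn1c*. The median log2 fold change was -0.15 over the 10 genes and 0.01 over all genes tested. Since the 10 genes were chosen with earlier results known, these counts describe them and do not test the set against all genes.

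**Figure D1:**
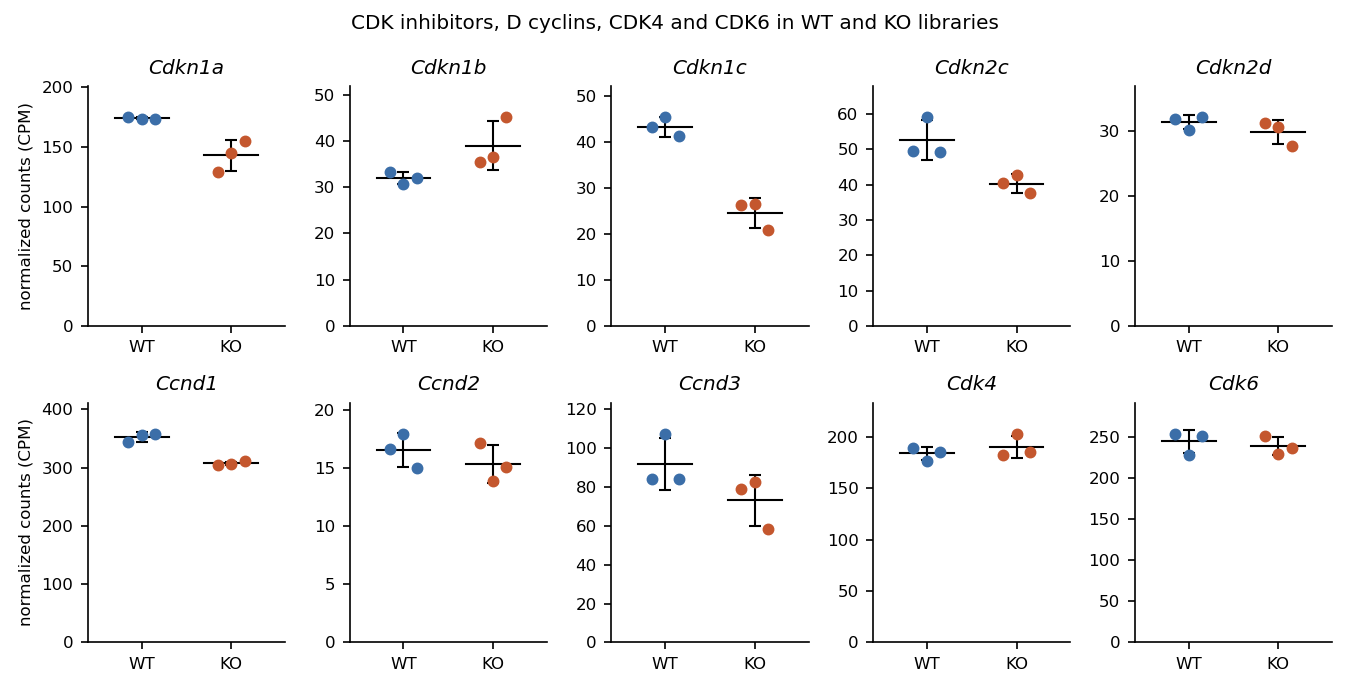
Normalized counts (CPM, vertical axes from 0, a scale of its own in each panel) of the 10 genes in 3 WT (blue) and 3 KO (orange) libraries; points are libraries, the horizontal line is the mean and the bar the SD. *Cdkn1c* lay between 41.2 and 45.4 CPM in WT and between 20.8 and 26.5 CPM in KO, while *Cdk4* and *Cdk6* overlapped.

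*Cdkn1c*, which encodes p57, an inhibitor expressed from the maternal allele and known for holding stem and precursor cells out of cycle, had the largest fold change of the 10 genes. It measured 43.3, 45.4 and 41.2 CPM in WT 1 to 3 and 26.2, 26.5 and 20.8 CPM in KO 1 to 3. Every KO library lay below every WT library, with a gap wider than the range within either genotype. The mean was 43.3 ± 2.09 CPM in WT and 24.5 ± 3.21 CPM in KO (SD, n = 3), so that KO stood at 0.567 of the WT level. The log2 fold change was -0.82 in edgeR's quasi-likelihood test (SE 0.12, 95% interval -1.10 to -0.54, unadjusted p = 9.1e-05), the 10th smallest p among all genes tested, with an adjusted p of 0.111. DESeq2 gave the same log2 fold change of -0.82 with an adjusted p of 8.7e-06. The tools thus gave the same size and different sides of the threshold.

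The *Cdkn1c* transcript is rich in GC, at 59.4%, and 95.3% of tested genes with a known transcript had a lower content. After GC correction it measured 40.9, 35.9 and 38.5 CPM in WT and 25.8, 27.3 and 29.4 CPM in KO, so the genotypes still did not overlap. The log2 fold change was then -0.48 (SE 0.084, unadjusted p = 0.00027, adjusted p = 0.0433 in edgeR's quasi-likelihood test), the 79th smallest p, and with DESeq2 the adjusted p was 0.0014. Of the 10 genes, 1 (*Cdkn1c*) passed an adjusted p under 0.05 with a change over 1.3-fold after GC correction, against 0.886% of all genes tested. With the replicate number added to that edgeR fit its adjusted p was 0.0931, and it no longer passed. With DESeq2 and GC correction *Cdkn1c* was again the 1 gene of the 10 to pass the limits, against 2.97% of genes with an adjusted p. Without WT 2 and KO 3, the libraries of strongest GC trend, a choice made after the values were seen, the uncorrected log2 fold change was -0.68 (adjusted p = 0.016 in edgeR). Leaving out any 1 library gave -0.88 to -0.71 with an unadjusted p of at most 0.0006 in edgeR.

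*Cdkn1a*, which encodes p21, the p53-responsive CIP/KIP inhibitor, was the most abundant inhibitor. It measured 174.9, 173.8 and 173.7 CPM in WT 1 to 3 and 129.4, 144.6 and 155.0 CPM in KO 1 to 3. The WT libraries were nearly equal and all 3 KO libraries lay lower. The mean was 174.1 ± 0.66 CPM in WT and 143.0 ± 12.9 CPM in KO (SD, n = 3), with a log2 fold change of -0.28 (SE 0.095, unadjusted p = 0.0157, adjusted p = 0.149, edgeR). After GC correction the genotypes overlapped, with 154.9 to 171.4 CPM in WT and 129.0 to 179.9 CPM in KO and a log2 fold change of -0.12 (unadjusted p = 0.306, adjusted p = 0.513, edgeR). The corrected KO values ran from KO 1, the lowest of the 6 libraries, to KO 3, the highest. With no correction, leaving out WT 1, WT 3 or KO 1 took the unadjusted p above 0.05, to at most 0.0552 in edgeR. Without WT 2 and KO 3 and with no correction the log2 fold change was -0.35 (adjusted p = 0.0662, edgeR).

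*Cdkn1b*, which encodes p27, was the 1 gene of the 10 that was higher in KO at an unadjusted p under 0.05. It measured 33.2, 30.6 and 32.1 CPM in WT 1 to 3 and 35.4, 36.5 and 45.1 CPM in KO 1 to 3. KO 3 stood above KO 1 and KO 2, and no KO library reached down to the WT range. Its log2 fold change was 0.29 (SE 0.12, unadjusted p = 0.0403, adjusted p = 0.176, edgeR). Its transcript is poor in GC, at 43.1%, and after correction the log2 fold change was 0.09 (unadjusted p = 0.239, adjusted p = 0.446, edgeR), although the genotypes still did not overlap (33.2 to 35.3 CPM in WT and 35.7 to 37.2 CPM in KO). Without KO 3 and with no correction it was 0.17 (unadjusted p = 0.106, edgeR).

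Of the INK4 inhibitors, *Cdkn2c* (p18) measured 49.4, 59.1 and 49.3 CPM in WT 1 to 3 and 40.5, 42.8 and 37.6 CPM in KO 1 to 3. WT 2 was the highest library, and all 3 KO libraries lay below the WT range. Uncorrected, the log2 fold change was -0.38 (SE 0.11, unadjusted p = 0.0073, adjusted p = 0.147, edgeR), and after GC correction it was -0.09 (unadjusted p = 0.33, adjusted p = 0.536, edgeR) with overlapping libraries at 46.7 to 48.4 CPM in WT and 40.0 to 49.99 CPM in KO. *Cdkn2c* and lincRNA-EPS both lie on chromosome 4, with 7 annotated genes between them, 2 of which were tested: *Ttc39a*, the neighbour of lincRNA-EPS, had a log2 fold change of -2.09 (adjusted p = 0.0805, edgeR) and *Rnf11* of 0.35 (adjusted p = 0.181, edgeR). After GC correction these were -2.00 and 0.13.

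*Cdkn2d* (p19) measured 31.9, 30.1 and 32.1 CPM in WT 1 to 3 and 31.2, 30.6 and 27.7 CPM in KO 1 to 3. The genotypes overlapped, and only KO 3 lay below the WT range. The log2 fold change was -0.07 (95% interval -0.30 to 0.16, unadjusted p = 0.499, adjusted p = 0.665, edgeR) and turned to 0.12 (unadjusted p = 0.214, edgeR) after GC correction. The corrected libraries did not overlap, in the opposite direction, at 25.99 to 31.06 CPM in WT and 31.09 to 33.7 CPM in KO.

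**Figure D2:**
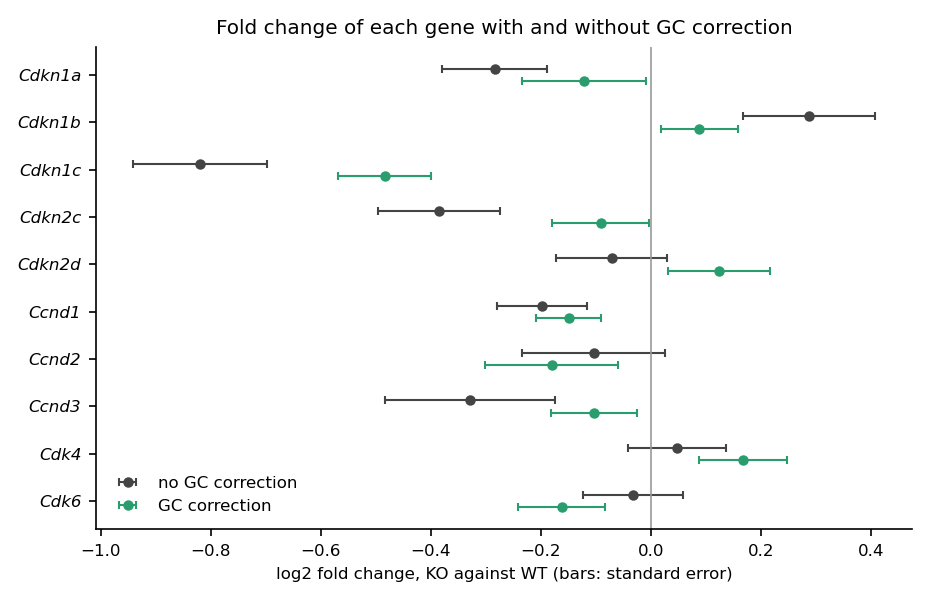
Log2 fold change of KO against WT (horizontal axis) of the 10 genes (vertical axis) in edgeR's quasi-likelihood fit, without (grey) and with (green) correction of each library for GC content; bars are the standard error. *Cdkn1c* moved from -0.82 to -0.48 and stayed farthest from 0, while *Cdkn2c* moved from -0.38 to -0.09.

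Start sites of 3 inhibitors are shown so that their letters can be compared: *Cdkn1a* and *Cdkn2c*, at an unadjusted p under 0.05 lower in KO, and *Cdkn1b*, higher in KO. None of the 3 passed the limits, and after GC correction none was at an unadjusted p under 0.05. RefSeq windows of 250 bases before to 50 bases after a transcription start (build GRCm38.p6, not the build of the gene table, which is GRCm39) were found for 7 of the 10 genes, 10 windows in all. *Cdkn1c*, *Ccnd1* and *Ccnd2* had no window. The windows below are those of *Cdkn1a* at its upstream start (chr17:29090729-29091028, plus strand), *Cdkn1b* (chr6:134920151-134920450, plus strand) and *Cdkn2c* at its upstream start (chr4:109666707-109667006, minus strand), written 5′ to 3′ with capitals for matches to the motifs named after them, read on both strands.
Cdkn1a: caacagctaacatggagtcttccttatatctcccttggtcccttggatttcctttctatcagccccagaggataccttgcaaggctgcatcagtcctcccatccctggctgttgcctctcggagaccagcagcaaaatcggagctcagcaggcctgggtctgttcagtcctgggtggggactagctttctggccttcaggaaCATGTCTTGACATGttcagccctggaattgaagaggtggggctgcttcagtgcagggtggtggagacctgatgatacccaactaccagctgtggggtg
Cdkn1b: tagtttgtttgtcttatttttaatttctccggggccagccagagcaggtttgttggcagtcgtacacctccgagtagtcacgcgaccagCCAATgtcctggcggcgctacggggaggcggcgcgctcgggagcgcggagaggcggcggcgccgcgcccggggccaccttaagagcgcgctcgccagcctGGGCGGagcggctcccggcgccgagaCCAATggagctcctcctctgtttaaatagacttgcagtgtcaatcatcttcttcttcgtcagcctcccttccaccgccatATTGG
Cdkn2c: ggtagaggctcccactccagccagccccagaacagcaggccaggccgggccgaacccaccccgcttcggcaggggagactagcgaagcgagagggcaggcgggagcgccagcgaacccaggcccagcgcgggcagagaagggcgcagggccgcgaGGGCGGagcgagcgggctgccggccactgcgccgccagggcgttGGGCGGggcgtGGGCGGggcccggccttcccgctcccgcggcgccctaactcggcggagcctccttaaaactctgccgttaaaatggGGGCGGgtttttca

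These 5 motifs were searched without regard to overlap: the GC box GGGCGG, the CCAAT box CCAAT, the TATA box TATAAA, the E2F words TTTCCCGC, TTTGGCGC, TTTGCCGC and TTTCGCGC, and a pair of p53 core motifs written CATGNNNNNNCATG. The *Cdkn1a* window held 1 match to the paired p53 core, which 0.712% of 32851 mouse windows held, and no match to the other motifs. A second *Cdkn1a* window, at chr17:29093519-29093818 on the plus strand, held 2 GC boxes and no p53 pair. The *Cdkn1b* window held 3 CCAAT boxes and 1 GC box, and the *Cdkn2c* window shown held 4 GC boxes, while a second *Cdkn2c* window, at chr4:109665323-109665622 on the minus strand, held 1 CCAAT box. Of all windows, 35.7% held a GC box, 37.4% a CCAAT box, 13.6% a TATA box and 2.26% an E2F word. No window of the 7 genes held an E2F word, which says only that these letters are not in these windows.

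*Ccnd1*, the D cyclin most responsive to growth factors, was the most abundant of the 10 genes by normalized count. It measured 343.4, 356.2 and 358.0 CPM in WT 1 to 3 and 304.7, 307.0 and 310.6 CPM in KO 1 to 3. All 3 KO libraries lay within 6 CPM of one another and below every WT library. The mean was 352.5 ± 7.93 CPM in WT and 307.4 ± 2.98 CPM in KO (SD, n = 3), so that KO stood at 0.872 of the WT level, with a log2 fold change of -0.20 (SE 0.082, unadjusted p = 0.0401, adjusted p = 0.176, edgeR). After GC correction the log2 fold change was -0.15 (unadjusted p = 0.0333, adjusted p = 0.157, edgeR) and the genotypes still did not overlap, at 342.4 to 355.1 CPM in WT and 304.9 to 323.5 CPM in KO. With no correction, leaving out WT 1, WT 2, WT 3, KO 1 or KO 2 took the unadjusted p above 0.05, to at most 0.14 in edgeR. *Ccnd1* and *Cdkn1c* were the 2 genes of the 10 at an unadjusted p under 0.05 after correction, against 26% of all genes tested, and 4 of the 10 did not overlap between genotypes, against 32.5%.

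*Ccnd3*, the D cyclin known for its role in blood cells, measured 84.1, 107.4 and 84.3 CPM in WT 1 to 3 and 79.1, 82.4 and 58.1 CPM in KO 1 to 3. The genotypes did not overlap, but the gap between 82.4 and 84.1 CPM was small beside the spread given by WT 2 and KO 3. The log2 fold change was -0.33 (SE 0.16, unadjusted p = 0.0638, adjusted p = 0.209, edgeR), -0.10 after GC correction (unadjusted p = 0.217, edgeR) and -0.06 without WT 2 and KO 3 (unadjusted p = 0.401, edgeR). *Ccnd2* was the least abundant D cyclin, with 16.6, 18.0 and 15.0 CPM in WT 1 to 3 and 17.1, 13.9 and 15.1 CPM in KO 1 to 3. Its genotypes overlapped, with a log2 fold change of -0.10 (95% interval -0.40 to 0.19, unadjusted p = 0.444, adjusted p = 0.619, edgeR) and of -0.18 (unadjusted p = 0.17, edgeR) after GC correction.

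*Cdk4* and *Cdk6*, the kinases that the D cyclins activate, overlapped between genotypes. *Cdk4* measured 189.6, 176.9 and 185.7 CPM in WT 1 to 3 and 182.8, 203.1 and 185.0 CPM in KO 1 to 3, with a log2 fold change of 0.05 (95% interval -0.15 to 0.25, unadjusted p = 0.603, adjusted p = 0.745, edgeR). *Cdk6* measured 254.2, 228.5 and 252.0 CPM in WT 1 to 3 and 251.7, 229.9 and 236.7 CPM in KO 1 to 3, with a log2 fold change of -0.03 (95% interval -0.24 to 0.17, unadjusted p = 0.726, adjusted p = 0.833, edgeR). After GC correction the log2 fold change was 0.17 for *Cdk4* (unadjusted p = 0.0652) and -0.16 for *Cdk6* (unadjusted p = 0.0699, both edgeR).

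**Figure D3:**
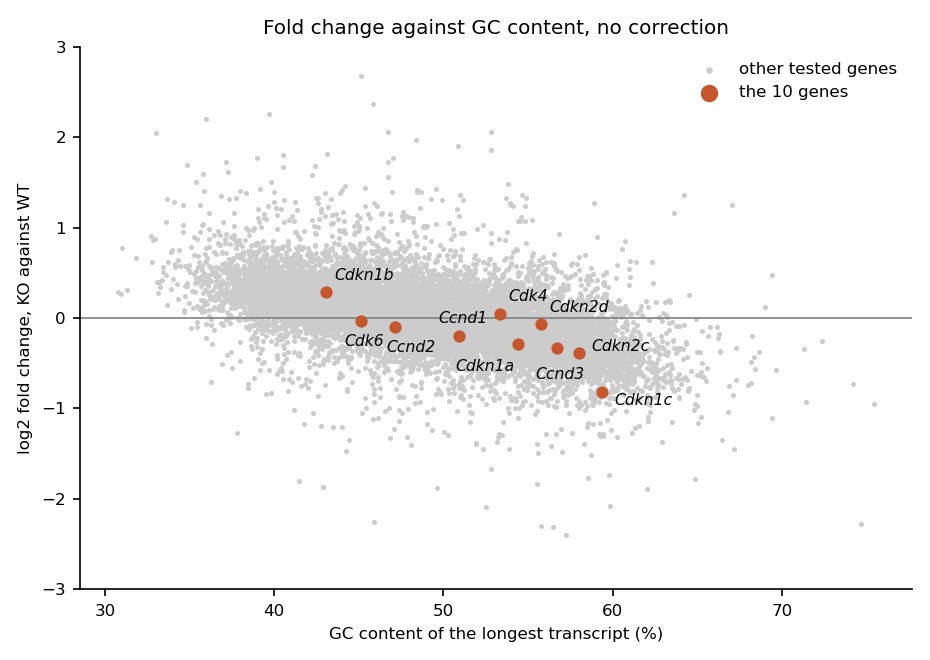
Log2 fold change of KO against WT with no correction (vertical axis) against the GC content in percent of the longest transcript (horizontal axis) for tested genes (grey) and the 10 genes (orange); 6 genes beyond 3 in either direction lie outside the axis. *Cdkn1c*, at 59.4% GC, and *Cdkn2c*, at 58.0%, lie toward the GC-rich end, and *Cdkn1b*, at 43.1%, lies toward the GC-poor end.

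To compare levels between genes, normalized counts were divided by the length of the longest annotated transcript (CPM per kb). In WT OCPs the order of mean levels was *Ccnd1* (94.3), *Cdk4* (89.7), *Cdkn1a* (83.7), *Ccnd3* (23.8), *Cdkn1c* (22.8), *Cdkn2d* (22.05), *Cdkn2c* (21.3), *Cdk6* (21.3), *Cdkn1b* (7.02) and *Ccnd2* (2.61 CPM per kb). Neighbours from *Ccnd3* to *Cdk6* overlapped in their libraries, as did *Ccnd1* and *Cdk4*, whereas *Cdkn1a* stood clear of *Cdk4* above and of *Ccnd3* below. In KO OCPs *Cdk4* (92.7) stood above *Ccnd1* (82.2) with no overlap, and *Cdkn1c* lay 8th at 12.9 CPM per kb, clear of *Cdkn2c* (16.3) above and *Cdkn1b* (8.57) below. The p57 transcript was thus level with p18 and p19 in WT cells and below both in KO cells.

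Summed by family, the D cyclins reached 116.3, 125.9 and 119.9 CPM per kb in WT 1 to 3 and 104.7, 105.6 and 100.5 CPM per kb in KO 1 to 3, a mean difference of -14.2%. The CIP/KIP inhibitors summed to 114.1, 114.1 and 112.2 CPM per kb in WT and 83.8, 91.5 and 95.4 CPM per kb in KO, a mean difference of -20.5%, and the INK4 inhibitors to 42.4, 45.1 and 42.5 CPM per kb in WT and 38.3, 38.9 and 34.7 CPM per kb in KO, a mean difference of -13.9%. In each family every KO library lay below every WT library, a lack of overlap that 35.7% of single genes tested showed in either direction. *Ccnd1* made up 78.1% of the D cyclin sum in WT and 79.4% in KO. The D cyclin sum thus mostly carried *Ccnd1*, and the CIP/KIP sum mostly carried *Cdkn1a*. A two-sided exact permutation test gave p = 0.1 for each of the 3 families, the smallest value that 3 against 3 libraries allow, so none could pass a threshold of 0.05. This p restates the lack of overlap and adds nothing to it. After GC correction the log2 ratio of KO to WT was -0.14 for the D cyclins (p = 0.1), -0.17 for the CIP/KIP inhibitors (p = 0.3) and 0.02 for the INK4 inhibitors (p = 0.8, exact permutation tests). A p above 0.1 in this test means that the genotypes overlapped, as the corrected CIP/KIP and INK4 sums did. Within the CIP/KIP sum without GC correction, *Cdkn1c* made up 20.1% ± 0.80 in WT and 14.4% ± 2.60 in KO, *Cdkn1b* 6.19% ± 0.26 and 9.48% ± 0.83, and *Cdkn1a* 73.8% ± 0.61 and 76.1% ± 1.95 (SD, n = 3). Corrected shares are not given. *Cdkn1c* (59.4% GC) and *Cdkn1b* (43.1% GC) differ in GC content, and correction moved both log2 fold changes toward 0, to -0.48 and 0.09.

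**Figure D4:**
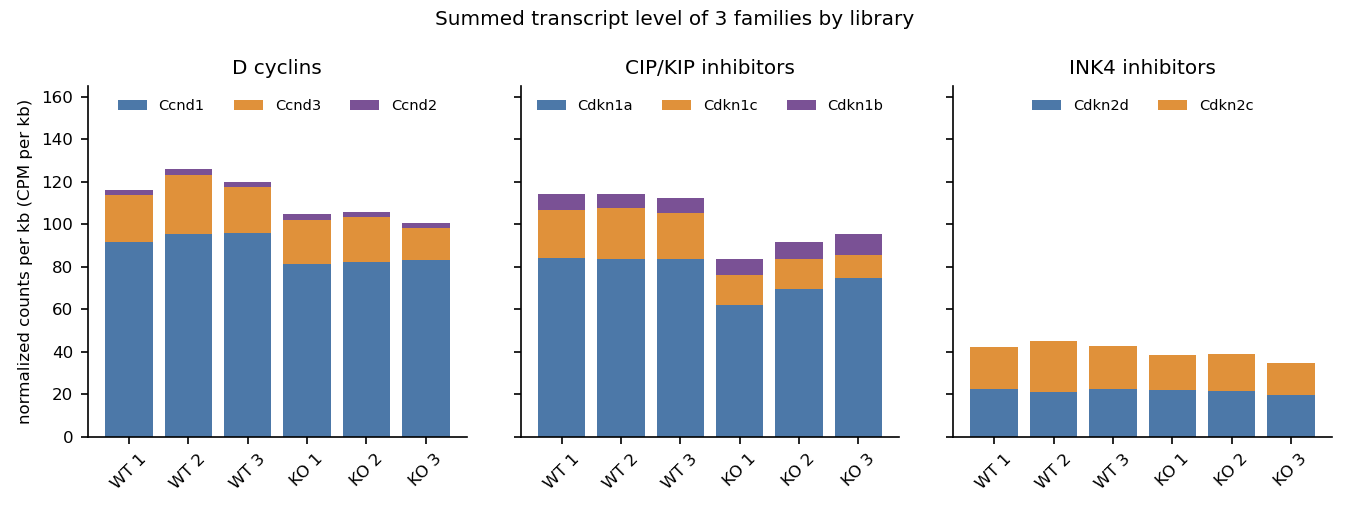
Stacked levels (CPM per kb with no GC correction, vertical axis from 0) of the D cyclins, the CIP/KIP inhibitors and the INK4 inhibitors in each of 6 libraries (horizontal axis), one colour per gene. The CIP/KIP sum lies between 112.2 and 114.1 CPM per kb in WT and between 83.8 and 95.4 CPM per kb in KO, and *Cdkn1a* makes up most of it in every library.

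Around the 10 genes, 125 other gene symbols were listed by their role in G1 and the cell cycle, by kinship to cyclins and CDKs or by position near *Cdkn1c*. The gene table held 124 of them, and 117 were tested. None passed the limits in edgeR's quasi-likelihood test, 11 were higher and 19 lower in KO at an unadjusted p under 0.05, and their median log2 fold change was -0.03. A share of 26.2% of all genes tested reached that level, so these counts lie near the background. With GC correction 9 were higher and 14 lower, where 26% of all genes tested reached the level. Among other CDK inhibitors, *Cdkn3*, a phosphatase of CDK2, measured 9.03 to 12.3 CPM in WT and 12.9 to 18.6 CPM in KO, with a log2 fold change of 0.60 (unadjusted p = 0.0079, adjusted p = 0.147, edgeR), or 0.48 after GC correction. *Cdkn2b* (p15) was near 2 CPM with overlapping libraries and a log2 fold change of 0.29 (unadjusted p = 0.262), or 0.49 (unadjusted p = 0.0447, edgeR) after GC correction, and *Cdkn2a* had at most 10 counts in any library and was not tested.

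Downstream of the kinases, 0 of 3 RB family genes and 3 of 10 E2F and DP genes reached an unadjusted p under 0.05, all 3 lower in KO, against 26.2% of all genes tested. After GC correction 2 of the 3 RB family genes were lower at that level, *Rb1* (log2 fold change -0.20, unadjusted p = 0.0275) and *Rbl1* (-0.27, unadjusted p = 0.0045, adjusted p = 0.0824, edgeR), and 3 of 10 E2F and DP genes reached it, *E2f2*, *E2f7* and *Tfdp1*, against 26% of all genes tested. *E2f2*, an activating E2F, measured 66.4 to 72.6 CPM in WT and 49.0 to 56.3 CPM in KO (log2 fold change -0.45, unadjusted p = 0.0016, adjusted p = 0.147, edgeR), and *E2f7*, a repressing one, had a log2 fold change of -0.32 (unadjusted p = 0.0313). With DESeq2, *E2f2* was the 1 gene of the 117 to pass the limits (adjusted p = 0.0097), where 1.22% of genes with an adjusted p did. It did not with DESeq2 and GC correction (adjusted p = 0.176), where *Cks1b* (adjusted p = 0.0078) and *Cd81* (adjusted p = 0.0024) passed, against 2.97% of genes with an adjusted p. Its corrected log2 fold change was -0.22 and that of *E2f7* -0.31 in edgeR. *E2f1* had -0.32 (unadjusted p = 0.0499), with overlapping libraries, and -0.03 after GC correction. Of 5 tested genes for cyclin E, cyclin A, CDK2 and CDC25A, 1 reached that level: *Ccna2*, the S phase cyclin, was higher in KO with a log2 fold change of 0.34 (unadjusted p = 0.0223, adjusted p = 0.156, edgeR), or 0.22 after GC correction. *Ccna1* was at 0 in every library. Of 25 S phase and mitosis genes, 2 were higher (*Cdk1*, 0.31, and *Birc5*, 0.26) and 2 lower (*Mcm2*, -0.40, and *Mcm5*, -0.27, log2 fold changes), and the other 21 did not reach that level. After GC correction these 4 genes were at 0.26, 0.19, -0.33 and -0.20.

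Of 16 tested genes that act on the turnover of the inhibitors and D cyclins, 3 were higher and 5 lower in KO at an unadjusted p under 0.05, against 13% and 13.2% of all genes tested. *Cks1b*, a cofactor of the SCF ubiquitin ligase that degrades p27, measured 39.8 to 45.9 CPM in WT and 53.4 to 60.6 CPM in KO (log2 fold change 0.39, unadjusted p = 0.0042, adjusted p = 0.147, edgeR), the related *Cks2* had 0.55 (unadjusted p = 0.0066) and the SCF part *Skp1* 0.57 (unadjusted p = 0.0119). Other parts of that ligase did not reach the level: *Skp2*, which recognises p27, had a log2 fold change of 0.06 (unadjusted p = 0.559), *Cul1* of 0.17 (unadjusted p = 0.146) and *Rbx1* of 0.30 (unadjusted p = 0.0707). *Ambra1*, the substrate receptor that marks D cyclins for degradation, was among the lower ones, at 53.9 to 65.7 CPM in WT and 36.5 to 49.5 CPM in KO (log2 fold change -0.44, unadjusted p = 0.0095, adjusted p = 0.147, edgeR). With GC correction 3 of the 16 genes were higher and 1 lower, with *Cks1b* at 0.38, *Cks2* at 0.42, *Skp1* at 0.42 and *Ambra1* at -0.28.

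Among inputs to the G1 genes, 0 of 17 tested genes of the p53 list were higher and 3 were lower at an unadjusted p under 0.05, against 26.2% of all genes tested in either direction. *Phlda3* had a log2 fold change of -0.59 (unadjusted p = 0.01), *Bbc3*, which encodes the death factor PUMA, of -0.65 (unadjusted p = 0.0121) and *Zmat3* of -0.25 (unadjusted p = 0.0197), with an adjusted p of 0.147 to 0.153 for these 3 genes in edgeR's quasi-likelihood test. After GC correction *Phlda3* and *Bbc3* had -0.12 and -0.05 and *Zmat3* -0.32, and the list had 1 gene higher and 1 lower. The higher one was *Bax*, a death factor, which turned from -0.26 (unadjusted p = 0.144) to 0.26 (unadjusted p = 0.0477, edgeR). Of 13 genes for growth factor input to G1, *Tgfbr1*, a TGF-beta receptor, was higher (log2 fold change 0.42, unadjusted p = 0.0103) and *Smad3*, *Ets2* and *Myc* were lower (-0.28, -0.23 and -0.34, the smallest unadjusted p being 0.0383). After GC correction the list had 0 genes higher and 1 lower (*Gsk3b*) at an unadjusted p under 0.05, with *Tgfbr1* at 0.17, *Smad3* at -0.17, *Ets2* at -0.13 and *Myc* at -0.21, none of these 4 at that level. *Csf1r*, the M-CSF receptor, had a log2 fold change of -0.27 (unadjusted p = 0.0534, adjusted p = 0.196, edgeR), or -0.12 after GC correction. The CDK activating kinase had 2 of 3 genes higher at an unadjusted p under 0.05, against 13% of all genes tested, and 0 after GC correction. These were *Mnat1* (0.40, unadjusted p = 0.0296) and *Ccnh* (0.53, unadjusted p = 0.0335, both edgeR), each with overlapping libraries. Of 16 cyclins and CDKs that act outside the cell cycle *Ccnc* was higher (0.62, unadjusted p = 0.0143) and *Ccnk* lower (-0.23, unadjusted p = 0.0474), against 13% and 13.2% of all genes tested. After GC correction *Ccnc* was at 0.16 and *Ccnk* at -0.11, neither at that level, and the list had 0 genes higher and 3 lower, *Cdk12*, *Cdk13* and *Cdk14*.

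*Cdkn1c* lies in an imprinted cluster on chromosome 7, and 7 of 11 listed genes of that neighbourhood were tested. Of these, 2 were lower at an unadjusted p under 0.05, against 26.2% of all genes tested in either direction, none was higher, and the median log2 fold change was -0.29, or -0.05 after GC correction. *Cd81*, a tetraspanin gene, measured 97.7 to 103.2 CPM in WT and 62.3 to 79.2 CPM in KO (log2 fold change -0.46, unadjusted p = 0.0029, adjusted p = 0.147, edgeR), and -0.43 (unadjusted p = 0.00095) after GC correction. *Tssc4* had -0.31 (unadjusted p = 0.0395) and 0.04 after GC correction, and *Kcnq1ot1*, the noncoding RNA that silences the paternal cluster, had 0.46 (unadjusted p = 0.0536) with overlapping libraries and 0.19 after GC correction. *Osbpl5*, at under 3 CPM in every library, had -0.45 (unadjusted p = 0.0514) and -0.23 after GC correction, and *Phlda2* was at 0 in every library.

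The genes whose pattern over the 6 libraries was most like that of *Cdkn1c* were *Tlr5*, *Ptafr*, *Kcnk13*, *Cxcl16* and *Retreg3* (Pearson's r on log2 normalized counts 0.993 to 0.995), and among the most opposite were *Snhg11*, *Pter*, *Dcstamp* and *Ghr* (r = -0.997 to -0.993). Of all tested genes 218 had r above 0.95 and 186 were as far below 0. Since *Cdkn1c* did not overlap between genotypes, r mainly carries the difference of KO and WT and is given as a description. *Dcstamp*, needed for the fusion of precursors, had mean levels of 115.3 CPM in WT and 206.6 CPM in KO.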

How the data were processed

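Stranded mRNA libraries of 3 WT and 3 KO OCP samples were deposited as 1 gene table. Per the labels and the values, the authors deposited estimated counts, not normalized, 25.1% to 26.6% of them not whole among genes detected in a library. The submitters' processing notes name fastp, HISAT2, StringTie, RSEM and build GRCm39, and versions and settings are not given in the sources used here. Non-whole values occurred for *Cdkn1a*, *Ccnd1*, *Ccnd3* and *Cdk4* in 5 or 6 libraries, so reads were partly shared out by a model.

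Counts were rounded, genes without enough counts were removed (filterByExpr), and edgeR 4.0.16 in R 4.3.3 (TMM scaling, quasi-likelihood test, Benjamini-Hochberg adjustment over 13428 genes) compared KO with WT. DESeq2 1.42.0, limma 3.58.1 (voom), other scalings and filters, GC correction (a natural spline with 5 degrees of freedom per library on GENCODE M21 transcripts, entered as offsets), a replicate block and left-out libraries were alternatives. Totals of 17757351 to 19998611 counts give a counting floor of 3 counts, 0.15 to 0.17 CPM. The scripts were tested on simulated data. The members and lists were chosen with earlier results of these data known. Named genes are all 10 members, up to 4 genes of each pathway list (those past the limits first, then by unadjusted p), the leading markers with those at 0, and the 5 genes most and least like *Cdkn1c*, of which 1 is not reported here. *Bax*, *Ccna1*, *Cdk13*, *Cdkn2a*, *Csf1r*, *Cul1*, *Gsk3b*, *Mmp8*, *Mpo*, *Rbx1*, *Skp2*, *Tfdp1*, *Phlda2* and the lincRNA-EPS neighbours were named after their values were seen.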

Additional observations from a re-analysis of the deposited data

How the results depend on the processing

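The log2 fold change of *Cdkn1c* kept its direction under all 19 alternatives, from -0.88 to -0.48, with an adjusted p from 8.7e-06 to 0.442, and passed the limits under 3 of them, all with DESeq2. Leaving out 1 library gave -0.88 to -0.71. The count of the 10 genes past the limits was 0 in edgeR and 1 with DESeq2, with DESeq2 and GC correction and with DESeq2 and the replicate block. Over all genes the count was 1 in edgeR, 3 with GC correction, 8 without WT 2 and KO 3, 0 to 2 without 1 library, and 126 with DESeq2, 337 with DESeq2 and GC correction and 259 with DESeq2 and the replicate block. The count of the 10 genes at an unadjusted p under 0.05 was 5, against 26.2% of all genes tested. With GC correction it was 2, against 26%. It was 1 with GC correction and the block, 2 with DESeq2 and GC correction and 2 to 5 without 1 library. The share of all genes at that level is not given for these last fits. *Cdkn1c* and *Cdkn2c* stayed under that level without any 1 library, whereas the largest p was 0.0552 for *Cdkn1a*, 0.106 for *Cdkn1b* and 0.14 for *Ccnd1*. *Ccnd1* lost it without WT 1, WT 2, WT 3, KO 1 or KO 2, *Cdkn1a* without WT 1, WT 3 or KO 1, and *Cdkn1b* without WT 1, WT 2, WT 3 or KO 3. *Cdkn2d* turned to 0.12 with GC correction, 0.13 with GC correction and the block and 0.13 with DESeq2 and GC correction, and *Cdk4* to -0.0020 without KO 2, within a range of -0.0020 to 0.079. The log2 ratio of the INK4 sum turned from -0.22 to 0.024 with GC correction. The cause of these moves was not tested. Samples of the same replicate number had correlations of deviations of -0.22, 0.08 and 0.17, and other pairs of WT and KO samples -0.29 to 0.29. Libraries differed in GC trend, so these values cannot decide whether the numbers pair the samples. With the block *Cdkn1c* was at -0.83 (adjusted p = 0.0471, edgeR), or -0.48 with GC correction and the block (adjusted p = 0.0931, against 0.0433 without the block, edgeR). With the block alone 4 of the 10 genes were at an unadjusted p under 0.05: *Cdkn1b* (0.0538) and *Ccnd1* (0.103) lost that level and *Ccnd3* (0.0217) reached it. DESeq2 with GC correction or with the block and the fit without 2 libraries were chosen after seeing the data. Depth was similar across libraries, and 3 replicates limit these tests.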
